A study of Mus musculus with 8 samples.

Results

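The mitochondrially encoded genes were taken as the rows of the count table whose symbol begins with mt-, which gave 37 of 55523 entries. They comprise 13 mRNAs, 2 rRNAs and 22 tRNAs, each present as a single row. All were measured in cells labelled as gonadotropes and sorted by fluorescence as EGFP-positive cells from pituitaries of the transgenic Ad4BP-BAC-EGFP line, in which EGFP marks cells that express NR5A1 (also named Ad4BP). The samples were 4 female (replicates 1 to 4) and 4 male (replicates 1 to 4) preparations of the same genotype, and the labels name no treatment. The labels give neither the age of the mice nor the number of animals in a sample, so p-values measure the spread between these samples only. The study set male replicate 1 aside because its expression pattern lay apart from the other males, and here its values are shown separately. Male replicates 2 to 4 are called the compared males.

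The mitochondrial genome is a small circular DNA that encodes core subunits of the respiratory chain, together with the rRNAs and tRNAs needed to translate them inside the organelle. Both strands are transcribed as long precursors, and the tRNAs lie between most of the mRNAs and rRNAs and are cut out to release them. The abundance of an individual mRNA therefore depends on processing and stability as well as on transcription. The cDNA kit named in the labels primes on poly(A) tails and does not mark the strand, so reads from genes on opposite strands of the same bases cannot be told apart, and tRNAs and rRNAs are seen only as far as their molecules or precursors were captured.

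Total counts ranged from 18774578 to 31302588 for females and from 24782710 to 28621582 for the compared males, and male replicate 1 had 22716536. A level is given as CPM, counts per 1000000 counts of the library after TMM scaling (trimmed mean of M values) over the 8 samples, and the floor of 3 counts lay between 0.0918 and 0.147 CPM. Intervals and floors of this kind cover counting error only. The gonadotrope label was checked with *Lhb*, *Fshb*, *Cga*, *Gnrhr* and *Nr5a1*, all 5 detected, but they did not move together. *Nr5a1*, the gene behind the EGFP sort, was 864 to 1263 CPM in females, 589.9 to 795 CPM in the compared males, below all the females, and 16.4 CPM in male replicate 1, which was 0.0230 times the mean of the compared males. *Gnrhr* (476 CPM) and *Cga* (12911 CPM) were also lowest in male replicate 1, while *Lhb* (9391 CPM) was within the range of the other samples, so the library labelled male replicate 1 goes against its label for the sorted gene. *Fshb* was 1398 to 5706 CPM in females and 17062 to 30668 CPM in the compared males, and the summed level of the 5 genes was 21524 to 34768 CPM in females, 67410 to 76468 CPM in the compared males and 28589 CPM in male replicate 1. The summed level of 6 markers of other endocrine pituitary cells was 36442 to 98680 CPM in females, 92972 to 188665 CPM in the compared males and 50882 CPM in male replicate 1. Summed markers of stem cells were 51.1 to 79.0 CPM in females and 30.3 to 37.5 CPM in the compared males, those of stromal cells 101 to 143 and 94.9 to 99.2 CPM, and those of endothelial, immune and erythroid cells overlapped between these groups. Of the single stem and stromal markers, only *Sox2* and *Col1a1* separated the groups, while *S100b*, *Col1a2*, *Dcn* and *Lum* overlapped. The part of these cell types in the mitochondrial values was not tested, and in bulk samples fewer cells of a type and less RNA per cell cannot be told apart.

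Mitochondrially encoded transcripts took a few percent of all counts in every sample. The 37 genes together held 5.31%, 3.18%, 3.68% and 4.08% of the counts in female replicates 1 to 4 and 4.66%, 4.50% and 3.32% in the compared males. Male replicate 1, at 5.40%, was the highest of the 8 samples, with female replicate 1 just under it, and the sexes overlapped. The mRNAs made up most of this share, at 2.67% to 4.55% of counts in females, 2.84% to 4.24% in the compared males and 4.65% in male replicate 1. The rRNAs took 0.502% to 0.739% of counts in females and 0.416% to 0.473% in the compared males. The males were thus below all the females on this scale, but after TMM scaling the summed rRNA level overlapped between the sexes, at 4628 to 6638 CPM in females and 4521 to 5378 CPM in the compared males. The tRNAs took at most 0.0160% of counts, the value of male replicate 1.

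Some of the mRNAs have near-identical copies on a nuclear chromosome, and these copies hold large counts in the same table. When the GENCODE sequences of the members were aligned with those of all nuclear transcripts, 7 unprocessed pseudogenes matched 7 mRNAs within chr1:24611535-24616197 on the minus strand (mm10, also named GRCm38). They are *Gm28439* (a copy of the first part of *mt-Nd4*), *Gm10222* (*mt-Nd4l*), *Gm28438* (*mt-Nd3*), *Gm28437* (*mt-Co3*), *Gm10925* (*mt-Atp6*), *Gm28661* (*mt-Co2*) and *Gm29216* (the last part of *mt-Co1*). Of these, 5 were identical to their member over all the aligned bases, which were 876 for *mt-Nd4*, 783 for *mt-Co3*, 681 for *mt-Co2*, 678 for *mt-Atp6* and 294 for *mt-Nd4l*. *Gm28438* and *Gm29216* differed from their members by 1 base each. The differing bases and those around them are shown with the changed base in capitals, because they are the only aligned positions at which a read of these copies can be told from one of the mitochondrial genes.
*mt-Co1* from base 1063: ggaAttgttttatccaac
*Gm29216*: ggaTttgttttatccaac
*mt-Nd3* from base 1: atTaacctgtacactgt
*Gm28438*: atCaacctgtacactgt
The substitutions are A1066T in *mt-Co1* and T3C in *mt-Nd3*, with the member's base first and positions counted from the first base of the member. The annotated *Gm10925* ends before the stop codon of *mt-Atp6*, which is in capitals here.
*mt-Atp6*, last bases: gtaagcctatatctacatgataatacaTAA
*Gm10925*, last bases: gtaagcctatatctacatgataataca

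The counts of the pairs were near equal for 3 of the 7 copies. *Gm28437* held between 0.999 and 1.001 times the count of *mt-Co3* in the 8 samples, *Gm28661* between 0.999 and 1.001 times that of *mt-Co2*, and *Gm10222* between 0.987 and 0.996 times that of *mt-Nd4l*. The ratio was 0.667 to 0.852 for *Gm28438* and *mt-Nd3*, 0.375 to 0.618 for *Gm29216* and *mt-Co1*, and 0.137 to 0.238 for *Gm28439* and *mt-Nd4*, and that of *Gm10925* and *mt-Atp6* varied most between samples. In female replicate 1, for example, *mt-Co3* had 102113 counts and *Gm28437* had 102164. The study's methods name featureCounts with its default settings, which leave out reads mapped to several places, and large equal counts on identical copies are at odds with that. Whether such reads were counted at both places, divided or assigned in another way was not settled, so the counts of these 7 members are uncertain. The 7 copies together held a further 1.28% to 1.96% of all counts, and with them the share of mitochondrial sequence was 4.58% to 7.22% in the 7 samples other than male replicate 1, which was at 7.36%. Less similar copies on other chromosomes held far fewer counts, as in *Gm13340*, which matches the whole of *mt-Co1* at 97.6% identity and had 3120 counts in female replicate 1.

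**Figure D1:**
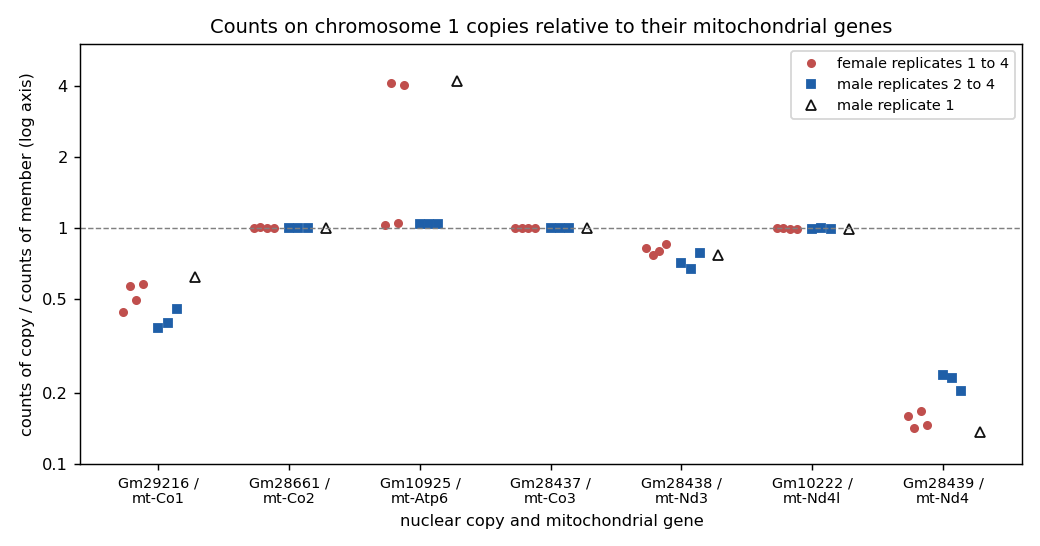
Counts on each chromosome 1 copy divided by the counts of its mitochondrial gene, in each sample (log axis; points are samples, and the dashed line marks equal counts). The copies of *mt-Co2*, *mt-Co3* and *mt-Nd4l* lie at the line in all 8 samples, whereas that of *mt-Atp6* lies at the line in 5 samples and near 4 in female replicates 2 and 4 and male replicate 1.

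*mt-Atp6* and its copy parted in 3 samples. *mt-Atp6*, which encodes a subunit of the proton channel of ATP synthase, was 5909, 1059, 4415 and 1303 CPM in female replicates 1 to 4. It was 7184, 6989 and 5505 CPM in the compared males and 1230 CPM (28000 counts) in male replicate 1. Female replicates 2 and 4 and male replicate 1 were thus far below the other 5 samples. The copy *Gm10925* showed no such drop, with 6059.8, 4350.1, 4632 and 5259 CPM in the females, 7432, 7233 and 5699 CPM in the compared males and 5139.6 CPM in male replicate 1. The ratio of copy to member was between 1.03 and 1.05 in the 5 samples and was 4.11, 4.04 and 4.18 in female replicate 2, female replicate 4 and male replicate 1.
Nor did its neighbour *mt-Co3* drop in these samples. The ratio of *mt-Atp6* to *mt-Co3* counts was 0.251, 0.259 and 0.240 in female replicates 2 and 4 and male replicate 1, and between 1.04 and 1.49 in the others. The 3 genes *mt-Atp8*, *mt-Atp6* and *mt-Co3* share 1 assembled locus of the count table, and *mt-Atp8* and *mt-Atp6* overlap by 43 bases. That overlap, with the start codon of *mt-Atp6* and the stop codon of *mt-Atp8* in capitals, lies on the plus strand at chrM:7927-7969.
*mt-Atp8* and *mt-Atp6*: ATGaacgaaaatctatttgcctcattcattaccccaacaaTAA
The sum of *mt-Atp6* and *Gm10925* was 11969, 5409, 9047 and 6562 CPM in the females, 14616, 14222 and 11204 CPM in the compared males and 6369 CPM in male replicate 1.

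Levels of different genes were compared per kilobase of gene length, as the mean over the 7 samples without male replicate 1. On this scale the mRNAs spread over a wide range, although the plus-strand mRNAs are cut from shared precursors. *mt-Atp6* stood at 6789 CPM per kb (range 1555 to 10549.8), *mt-Co3* at 5846 (5379 to 6410), *mt-Cytb* at 5811 (3638 to 8683) and *mt-Atp8* at 5665 (3863 to 8263), and these 4 neighbours in the order overlapped. *mt-Co1* followed at 4192 CPM per kb (2964 to 5812) and *mt-Co2* at 2444 (1920 to 2993). Among the subunits of complex I, the NADH dehydrogenase, *mt-Nd1* was at 2890.2 CPM per kb (2161 to 3887), *mt-Nd6* at 2072 (1604 to 2691), *mt-Nd4* at 2016 (1616 to 2391), *mt-Nd2* at 1611 (1298 to 2014) and *mt-Nd5* at 1108 (834 to 1515). *mt-Nd4l* and *mt-Nd3* were the lowest mRNAs, at 372 (224 to 541) and 263 (179 to 394) CPM per kb. Of the rRNAs, *mt-Rnr2*, the large subunit RNA of the mitochondrial ribosome, was 3036 CPM per kb (2607 to 3672) and *mt-Rnr1*, the small subunit RNA, 574 (390.5 to 914).
With the copies added to their members, *mt-Atp6* stood at 15319.6 CPM per kb, *mt-Co3* at 11693, *mt-Co1* at 6110.2 and *mt-Co2* at 4887, so the order among the leading genes depends on how the copies are counted, while *mt-Nd4l* at 741 and *mt-Nd3* at 469 CPM per kb remained the lowest mRNAs.

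**Figure D2:**
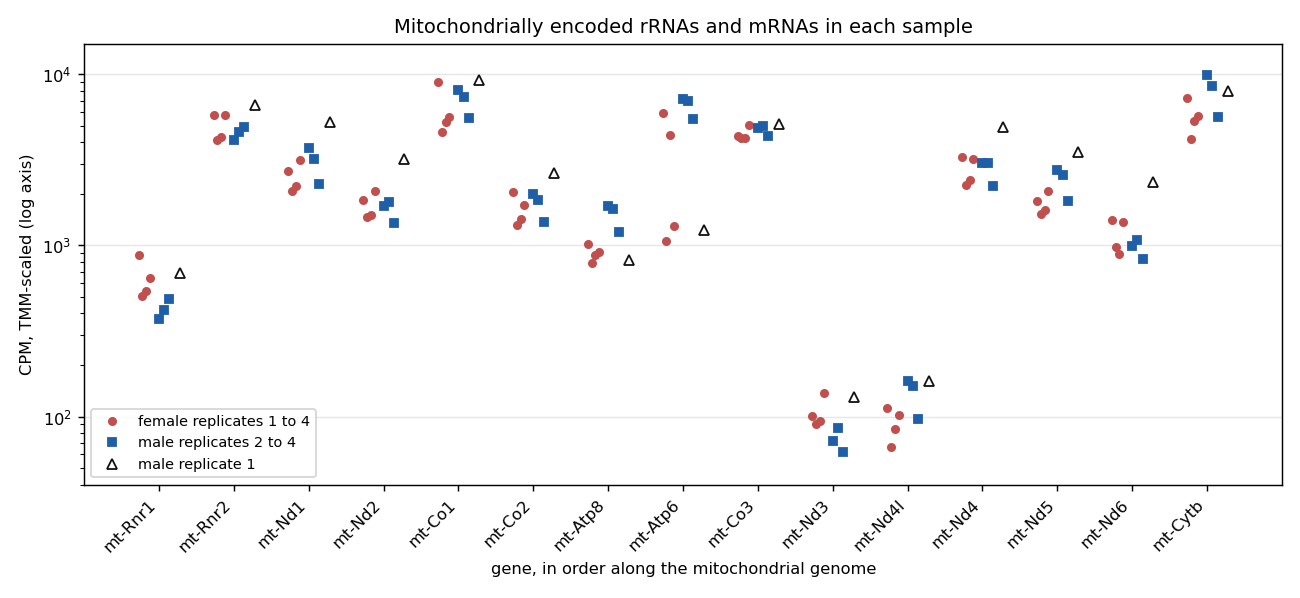
CPM of the 2 rRNAs and 13 mRNAs in each sample (log axis; points are samples, with male replicate 1 as an open triangle), in gene order. The female points of *mt-Atp6* fall into 2 separate pairs, and in *mt-Atp8* the 3 males lie above the 4 females.

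The compared males were set against the 4 females in edgeR's quasi-likelihood test, fitted on the whole table with Benjamini-Hochberg adjustment over the 20152 entries tested. The question was whether gonadotropes of the sexes differ in mitochondrially encoded RNA. Of the 37 members, 34 passed the filter on low counts, and *mt-Tf*, *mt-Th* and *mt-Ts2*, with at most 21 counts in a sample, did not. None of the 34 had an adjusted p under 0.05 in edgeR, against 2.34% of all entries tested (0.983% higher and 1.35% lower in males). At an unadjusted p under 0.05 there were 5 of 34 members, against 19.9% of all entries. With 1 sample left out this count was lowest without male replicate 2, at 1 of 35, beside 3052 of 20926 entries. It was highest without male replicate 4, at 10 of 35, beside 3822 of 21143 entries. Of the 5 found with no sample left out, *mt-Atp8*, *mt-Tl1* and *mt-Ty* were higher in males, against 9.31% of all entries, and *mt-Rnr1* and *mt-Nd3* were lower, against 10.6%. DESeq2 called 1 of the 34, *mt-Atp8*, against 11.6% of all entries. The median log2 fold change (male over female) was 0.15 over the 34 members and -0.03 over all entries tested, and 22 members were above 0 and 12 below. The members' median turned to -0.0552 with library size alone, where that of all entries also moved, to -0.24. It was 0.35 with the replicate block and ran from 0.0609 (without male replicate 2) to 0.37 (without female replicate 1) with a sample left out. In the block, female replicate 1 stands alone, since male replicate 1 was left out, so it adds nothing to the fold change. A p that misses the threshold does not show that the levels did not differ.

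The member with the smallest p was *mt-Atp8*, a small subunit of ATP synthase. It was 1015, 788, 874 and 911 CPM in female replicates 1 to 4 and 1686, 1624 and 1191 CPM in the compared males. Each of these males was above each female, and male replicate 1, at 820 CPM (18670 counts), lay with the females. The log2 fold change was 0.72 (standard error 0.16), and the adjusted p was 0.0680 in edgeR and 0.00372 in DESeq2. Groups that did not overlap were found for 6 of the 34 members, against 22.5% of all entries tested. The males were above for *mt-Atp8*, *mt-Tl1*, *mt-Ta* and *mt-Ty*, against 11.6%, and below for *mt-Rnr1* and *mt-Nd3*, against 10.9%. *Malat1*, an RNA held in the nucleus, also separated these groups, at 1.27% to 1.59% of counts in females and 0.706% to 0.925% in the compared males (log2 fold change -0.57, adjusted p 0.0938 in edgeR), and its part in the member differences was not tested. *mt-Atp6* had the largest log2 fold change, 1.03, but its standard error was 0.59 and its adjusted p in edgeR 0.401. With the replicate number as a block it was 1.82 (standard error 0.48, adjusted p 0.282 in edgeR). When *mt-Atp8*, *mt-Atp6* and *Gm10925* were summed into 1 feature, the log2 fold change was 0.68 (standard error 0.26, adjusted p 0.209 in edgeR).

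None of the electron transport subunits passed the test. *mt-Cytb*, the only subunit of complex III made in mitochondria, was 7291, 4162, 5310.0 and 5693 CPM in females and 9933, 8518 and 5632 CPM in the compared males, with overlap, and its log2 fold change was 0.49 (standard error 0.25, adjusted p 0.334 in edgeR). The 3 catalytic core subunits of complex IV, cytochrome c oxidase, had log2 fold changes of 0.17 for *mt-Co1*, 0.06 for *mt-Co2* and 0.06 for *mt-Co3*, and the signs of all 3 turned when library sizes were used without TMM factors. That scaling also moved the median of all entries tested from -0.03 to -0.24. *mt-Co3* was the steadiest member, with a standard error of 0.12 and with levels of 4375, 4217, 4250.1 and 5025 CPM in females and 4832, 5006 and 4377 CPM in the compared males.
Of the 7 subunits of complex I, 3 had log2 fold changes above 0 and 4 below. *mt-Nd3* was 100.3, 90.3, 94.0 and 137 CPM in females and 71.6, 86.0 and 62.3 CPM in the compared males, so each of these males was below each female. Its log2 fold change was -0.55 (standard error 0.20, adjusted p 0.197 in edgeR). *mt-Nd4l*, which follows *mt-Nd3* after the tRNA *mt-Tr*, was 112, 66.4, 84.4 and 102 CPM in females and 161, 151 and 97.0 CPM in the compared males. Its log2 fold change was 0.56 (standard error 0.24, adjusted p 0.265 in edgeR), with the opposite sign to that of *mt-Nd3*.
*mt-Nd5* was at 0.41 (standard error 0.19, adjusted p 0.279 in edgeR) and *mt-Nd6*, the only mRNA on the minus strand, at -0.28 (standard error 0.20, adjusted p 0.511 in edgeR). *mt-Nd5* and *mt-Nd6* overlap by 14 bases on opposite strands. Because the strand is not marked, plus-strand RNA running past *mt-Nd5* would also be counted as *mt-Nd6*, and the part of such reads was not tested. *mt-Nd1*, *mt-Nd2* and *mt-Nd4* were at 0.25, -0.12 and -0.04, with standard errors of 0.22, 0.18 and 0.19.

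The rRNAs both had log2 fold changes below 0. *mt-Rnr1* was 873, 504, 540.4 and 641 CPM in females and 373, 419 and 487 CPM in the compared males, so these males were below all the females. Its log2 fold change was -0.61 (standard error 0.22, adjusted p 0.184 in edgeR). *mt-Rnr2* was at -0.16 (standard error 0.17, adjusted p 0.670 in edgeR) and overlapped between the sexes.

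**Figure D3:**
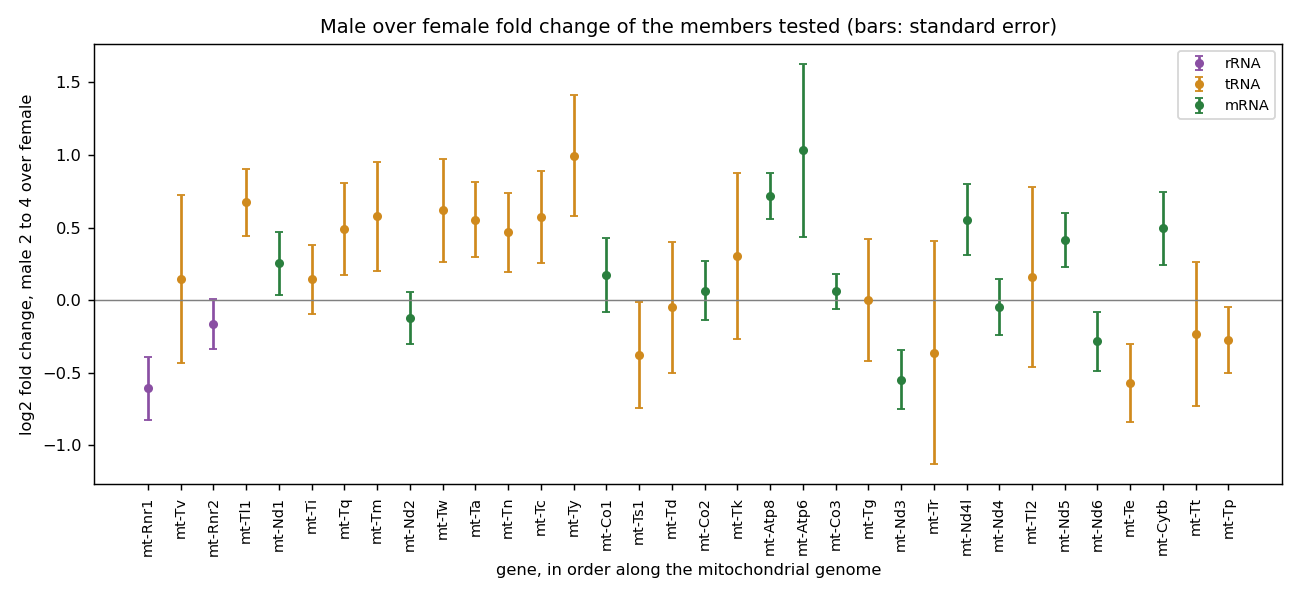
Log2 fold change of male replicates 2 to 4 over female replicates 1 to 4 for the 34 members tested, from edgeR, with bars of 1 standard error, in gene order. The values run from -0.61 for *mt-Rnr1* to 1.03 for *mt-Atp6*, and none passed the threshold.

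The tRNA rows were low, as 19 of the 22 passed the filter and only *mt-Te* exceeded 9 CPM in any sample. *mt-Te*, the tRNA for glutamate, lies on the minus strand directly beside *mt-Nd6* and was 56.8, 34.5, 28.9 and 50.3 CPM in females, 27.5, 33.5 and 26.6 CPM in the compared males and 87.8 CPM in male replicate 1. Its count was between 0.0276 and 0.0407 times that of *mt-Nd6* in the 8 samples. The next 4 by mean level over the 7 samples were *mt-Tp* (proline), *mt-Ti* (isoleucine), *mt-Ts1* (serine) and *mt-Tn* (asparagine), and 4 of these 5 leading tRNA genes are on the minus strand, as are 8 of the 22 tRNAs in all. Their sequences are shown with those of *mt-Tl1* (leucine) and *mt-Ty* (tyrosine), which had the smallest p-values among the tRNAs. The triplet read as the anticodon is in capitals.
*mt-Te* (chrM:14071-14139, minus strand): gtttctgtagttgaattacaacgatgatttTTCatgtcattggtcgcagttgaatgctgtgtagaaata
*mt-Tp* (chrM:15356-15422, minus strand): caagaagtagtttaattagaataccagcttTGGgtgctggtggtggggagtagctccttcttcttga
*mt-Ti* (chrM:3706-3774, plus strand): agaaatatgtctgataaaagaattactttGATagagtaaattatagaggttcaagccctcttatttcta
*mt-Ts1* (chrM:6870-6938, minus strand): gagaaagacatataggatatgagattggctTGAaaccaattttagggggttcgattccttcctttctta
*mt-Tn* (chrM:5089-5159, minus strand): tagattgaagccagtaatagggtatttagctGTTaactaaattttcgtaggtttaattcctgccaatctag
*mt-Tl1* (chrM:2676-2750, plus strand): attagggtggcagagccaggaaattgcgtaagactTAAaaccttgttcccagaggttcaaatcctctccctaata
*mt-Ty* (chrM:5260-5326, minus strand): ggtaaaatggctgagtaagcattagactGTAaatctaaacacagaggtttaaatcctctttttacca

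*mt-Tl1* was 3.77, 2.99, 2.60 and 3.38 CPM in females and 5.98, 5.21 and 4.31 CPM in the compared males, with no overlap. Its log2 fold change was 0.67 (standard error 0.23, adjusted p 0.170 in edgeR). *mt-Ty* was 1.29, 0.589, 1.13 and 1.34 CPM in females and 1.94, 3.03 and 1.65 CPM in the compared males, again with no overlap, at a log2 fold change of 0.996 (standard error 0.42, adjusted p 0.245 in edgeR). *mt-Ta*, the alanine tRNA, was the other tRNA whose groups did not overlap. The counts behind these rows were small, at 12 to 37 in the females and 36 to 81 in the compared males for *mt-Ty*. *mt-Ts2* had 1 count in each sample but male replicate 1, which had 2.

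Ratios between members within a sample do not depend on how the libraries were scaled. All 105 ratios between 2 of the 15 mRNAs and rRNAs were computed, and in 54 of them, or 51.4%, the compared males and the females did not overlap. The same was found for 7.19% of the 2628 ratios between nuclear-encoded subunits of the respiratory complexes and for 12.7% of the 2926 ratios between nuclear-encoded mitochondrial ribosomal proteins, but the genes of these lists were lower, with a median level of 71.3 and 43.1 CPM, than the 15 members, whose means ran from 91.7 to 6648 CPM. Among the 1733 other tested entries whose mean lay within that range, 29.9% of the ratios did not overlap, a share computed after the others were seen. The ratios share genes, libraries and loci, and the members were chosen with results known, so these shares are a description with no test, and nothing particular to the members is read from them.
*mt-Atp8* was in 11 of the ratios without overlap, in each case with the higher relative level in males, and *mt-Nd3* was in 10, in each case with the lower relative level in males. *mt-Rnr1* was lower in males in all 9 of its ratios without overlap and *mt-Nd6* in all 8 of its own. The ratio of *mt-Nd3* to *mt-Nd5* counts was 0.0555, 0.0594, 0.0586 and 0.0659 in females and 0.0259, 0.0336 and 0.0345 in the compared males. The ratio of *mt-Nd3* to *mt-Nd4l* was 0.899, 1.36, 1.11 and 1.34 in females and 0.446, 0.570 and 0.642 in those males. *mt-Nd3* thus exceeded *mt-Nd4l* in 3 of the 4 females and in none of the 3 males, although both carry copies on chromosome 1.
For members with no such copy, the ratio of *mt-Nd5* to *mt-Nd6* was 1.29, 1.55, 1.80 and 1.53 in females and 2.78, 2.38 and 2.17 in the compared males. The strand of the reads behind the *mt-Nd6* row is not known. The ratio of *mt-Rnr1* to *mt-Rnr2* was 0.151, 0.122, 0.125 and 0.110 in females and 0.0899, 0.0916 and 0.0997 in these males. The lowest female and the highest male were close in this last ratio. Within *mt-Nd4*, whose copy spans only the first 63.6% of the gene, the ratio of *Gm28439* to *mt-Nd4* was 0.142 to 0.167 in females and 0.204 to 0.238 in the compared males.

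Male replicate 1 stood apart from the other samples. It was above all 7 other samples for 22 of the 34 members tested, against 21.1% of all entries, and below all 7 for 0 of the 34, against 18.8%. A single sample against the others allows no test. Of the 7 complex I mRNAs, 6 were above all the other samples, with *mt-Nd3* the exception at 130.2 CPM against 62.3 to 137 CPM. *mt-Nd1* reached 5219 CPM, with the rest between 2068 and 3720.0 CPM, *mt-Nd2* 3177 against 1347 to 2090.3 CPM and *mt-Nd6* 2344 against 832 to 1397 CPM. *mt-Nd4* was 4894 against 2227 to 3295 CPM and *mt-Nd5* 3499.6 against 1521 to 2763 CPM, while *mt-Nd4l* was 162 CPM against 161 CPM in the next sample. The 7 complex I mRNAs together took 1.95% of the library, and between 0.762% and 1.27% in the rest. The rise was not limited to complex I. The complex IV mRNAs were also above all the other samples. *mt-Co2* was 2633 against 1313 to 2047 CPM, *mt-Co1* 9236 against 4579 to 8980 CPM and *mt-Co3* 5128 against 4217 to 5025 CPM. So was *mt-Rnr2*, at 6612 against 4124 to 5808 CPM.
The genes of ATP synthase were not raised. *mt-Atp8* in male replicate 1 was 0.546 times the mean of the other males and *mt-Atp6* 0.187 times, whereas *mt-Cytb* was 0.989 times and *mt-Co3* 1.08 times that mean. The value of *mt-Atp6* depends on its copy, since *mt-Atp6* and *Gm10925* together were 6369 CPM there against 11204 to 14616 CPM in the other males. The tRNA *mt-Te* was 3.01 times the mean of the other males and *mt-Nd6*, its neighbour on the minus strand, 2.42 times. The same library gave 11.1% of its counts to *Malat1*, against 0.706% to 1.59% in the other samples, and had the low *Nr5a1* level given above, and the part of these in the mitochondrial values was not tested. Of the 54 ratios that separated the sexes, male replicate 1 was in the range of the females for 11, beyond the females for 25, between the sexes for 8, in the range of the other males for 9 and beyond those males for 1.

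**Figure D4:**
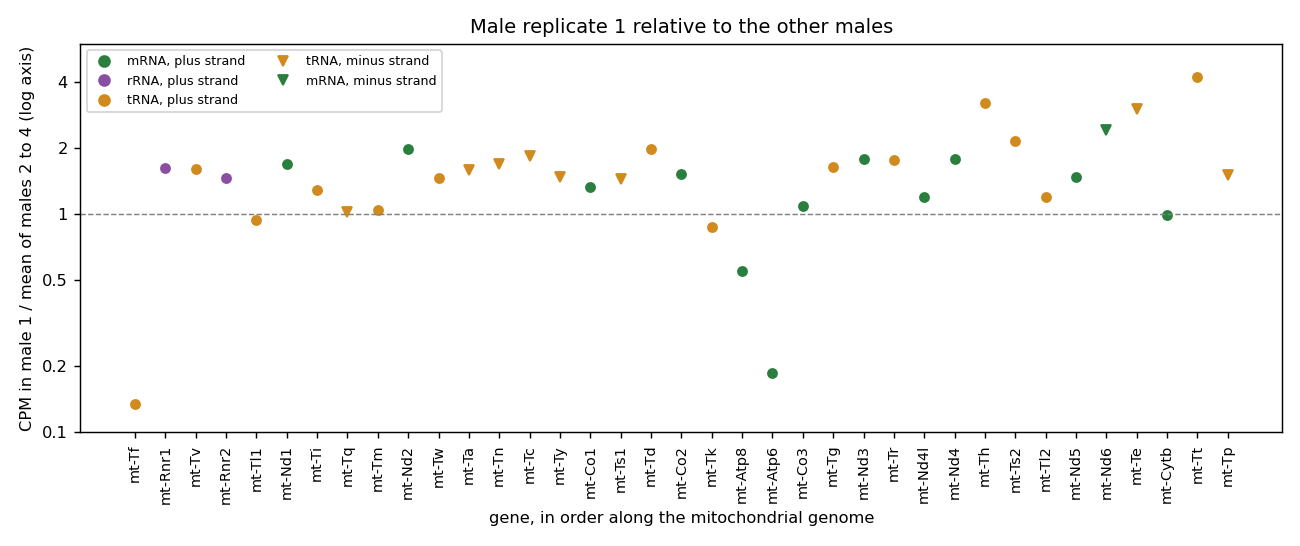
CPM of each of the 37 members in male replicate 1 divided by the mean of male replicates 2 to 4 (log axis; circles are plus-strand genes and triangles minus-strand genes; no error, 1 sample), in gene order. Most genes lie above 1, *mt-Atp6* and *mt-Atp8* lie at 0.187 (copy not added) and 0.546, and *mt-Tf*, with 1 count in male replicate 1, at 0.135.

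The nuclear genes that maintain and transcribe mitochondrial DNA, process and translate its RNA or regulate mitochondrial biogenesis were examined beside the members. Of 66 such genes in 5 lists, 65 were tested and 1 passed the threshold in edgeR, with 16 at an unadjusted p under 0.05 and a median log2 fold change of 0.07, beside 2.34% and 19.9% of all entries at these thresholds. That gene was *Rrm2b*, a subunit of the ribonucleotide reductase that supplies deoxynucleotides for mitochondrial DNA outside S phase. It was 17.6, 19.0, 23.4 and 15.9 CPM in females and 40.7, 45.9 and 31.8 CPM in the compared males, higher in each of these males, at a log2 fold change of 1.03 (standard error 0.20) and an adjusted p of 0.0494 in edgeR, just under the threshold. In male replicate 1 it was 11.8 CPM, below every other sample. The call of *Rrm2b* was lost with any 1 of the compared samples left out (adjusted p in edgeR 0.0622 to 0.158), with library size alone (0.0737), with no filter beyond 1 count (0.0837), with the replicate block (0.227) and with all 8 samples (0.552), and its log2 fold change stayed between 0.78 and 1.17. DESeq2, which called 11.6% of all entries, kept the call of *Rrm2b* (adjusted p 0.000237 in DESeq2).
*Ppargc1a*, which encodes a coactivator of mitochondrial biogenesis, was 15.7, 15.2, 24.0 and 17.3 CPM in females and 7.23, 10.3 and 9.36 CPM in the compared males, with no overlap, and 24.9 CPM in male replicate 1, the highest of the 8 samples, at a log2 fold change of -1.03 and an adjusted p of 0.0676 in edgeR. *Tfam*, which packages mitochondrial DNA and helps to start its transcription, was 56.0 ± 4.69 CPM in females (SD, n = 4) and 50.5 ± 10.3 CPM in the compared males (SD, n = 3). *Polrmt*, the mitochondrial RNA polymerase, was 4.61 ± 1.44 and 5.37 ± 1.08 CPM, and *Polg*, the DNA polymerase, was 15.8 ± 6.39 and 16.3 ± 3.75 CPM in the same groups. *Twnk*, the helicase, had a log2 fold change of -0.58 (adjusted p 0.233 in edgeR). *Lrpprc*, which stabilizes mitochondrial mRNAs, was at 0.28 (adjusted p 0.526 in edgeR) and *Mtpap*, their poly(A) polymerase, at 0.37 (adjusted p 0.394 in edgeR). *Slirp*, the partner of *Lrpprc*, had 0 counts in the compared males and in female replicate 4, but 7.67, 12.7 and 8.72 CPM in the other females and 5.66 CPM in male replicate 1, with an adjusted p of 0.138 in edgeR.
Of the 74 nuclear-encoded subunits of the respiratory complexes, 73 were tested and 0 passed in edgeR, with 4 at an unadjusted p under 0.05 and a median log2 fold change of -0.09. Of the 77 mitochondrial ribosomal proteins tested, 0 passed in edgeR, with 9 at an unadjusted p under 0.05, and the same shares of all entries apply to both lists.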

How the data were processed

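RNA from sorted EGFP-positive cells was made into libraries with a low-input poly(A) kit and sequenced. According to the study's methods, the authors trimmed reads with cutadapt, mapped them to mm10 with STAR and counted them with featureCounts, each with default parameters, and they deposited raw counts per entry for each sample in 1 table. The annotation is not given in the sources used here. Entries named MSTRG are of a form made by transcript assembly, which the methods do not mention, and identical copies hold large equal counts, although featureCounts by default leaves out reads mapped to several places. How such reads were counted was therefore not settled.

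Counts were analysed with edgeR 4.0.16 and DESeq2 1.42.0 in R 4.3.3, with filterByExpr, TMM factors, the quasi-likelihood test, Benjamini-Hochberg adjustment over all entries tested and a threshold of 0.05. Male replicate 1 was left out of the test, as in the study. The standard error is the absolute log2 fold change divided by the square root of F. Gene positions and sequences came from GENCODE release M21 (GRCm38), whose build is that of the authors. Nuclear copies were found with blastn 2.17.0 at a minimum of 95% identity over 15% of a member and 60 bases, among genes with a row in the table. Named members are all mRNAs and rRNAs, the 5 tRNAs with the highest mean CPM and any tRNA called, and *mt-Tl1*, *mt-Ty* and *mt-Ta* were added after their values were seen. Of the nuclear lists, 8 genes were fixed by name and those called were added. The members, lists and alternatives were chosen with earlier results of these data known. The alternatives were other tools, scalings, filters and samples, a replicate block, leaving out each sample and, added after seeing the data, counts of the copies summed with their members.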

Additional observations from a re-analysis of the deposited data

Results flagged for a closer look

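Of 76 groups of 4 samples examined, 38 features in each sex, 5 had 1 sample far from the other 3, where chance gives about 3.8. All 5 were in males, and 3 of them were in male replicate 1. *mt-Nd6* stood at 2344 CPM in that sample, with its 3 counterparts between 832 and 1074 CPM. *mt-Te*, its neighbour, was 87.8 CPM there against 26.6 to 33.5 CPM. *mt-Tt*, the threonine tRNA, was 2.37 CPM (54 counts) against 0.504 to 0.599 CPM. *mt-Nd4l* in male replicate 4 stood at 97.0 CPM, below a range of 151 to 162 CPM whose upper end is male replicate 1. *mt-Tk*, the lysine tRNA, stood at 0.544 CPM (14 counts) in male replicate 2, above a range of 0.395 (male replicate 1) to 0.413 CPM, but the others had 9 to 11 counts, so it lies within counting error.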

How the results depend on the processing

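The number of entries past the threshold between the sexes was 471. It was 2329 with DESeq2, 808 with library size alone, 177 with no filter beyond 1 count, 67 with all 8 samples, 0 with the replicate block (edgeR, with 2954 at an unadjusted p under 0.05) and 88 to 171 with each sample left out in turn. Library size alone also moved the median log2 fold change of all entries to -0.24 and left 133 entries higher and 675 lower in males, against 198 and 273. The number of mitochondrially encoded genes past the threshold was 0 in the fit reported, 1 with DESeq2 (*mt-Atp8*) and 0 in every other setting run.

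Of 218 log2 fold changes of the 20 members named by rule under 11 settings, 206 kept their sign and their side of the threshold and 11 turned sign, none of them called. With library size alone, *mt-Co1* was -0.0442, *mt-Co2* -0.15, *mt-Co3* -0.15 and *mt-Ti* -0.0645. With all 8 samples, *mt-Rnr2* was 0.0157, *mt-Nd2* 0.22, *mt-Nd4* 0.23, *mt-Nd6* 0.18 and *mt-Te* 0.0413. *mt-Nd4* was 0.0454 with the replicate block and 0.0429 with copies added. With a sample left out, *mt-Co2* ranged from -0.0501 to 0.21, *mt-Nd2* from -0.20 to 0.00712, *mt-Nd4* from -0.12 to 0.0902 and *mt-Atp8* from 0.63 to 0.86. *mt-Atp6* ranged from 0.76 to 1.54, and was 1.82 with the replicate block. *mt-Tl1*, *mt-Ty* and *mt-Ta*, outside the 20, kept their sign in every setting run and were called in none. With a sample left out and no turn of sign, *mt-Co1* ranged from 0.0601 (without male replicate 2) to 0.44 (without female replicate 1), *mt-Nd1* from 0.0927 to 0.43, *mt-Cytb* from 0.31 to 0.70, *mt-Rnr1* from -0.71 to -0.40 (without female replicate 1) and *mt-Rnr2* from -0.22 to -0.0608, and *mt-Co1* was 0.0691 with copies added. *mt-Nd1* was 0.0462 with library size alone and 0.51 with all 8 samples, and *mt-Cytb* 0.28 with library size alone. *mt-Rnr1* was -0.83 with library size alone and -0.38 with all 8 samples. In the same leave-outs, *mt-Co3* ranged from 0.0248 to 0.14, *mt-Nd6* from -0.37 to -0.16, *mt-Tp* from -0.37 to -0.14, *mt-Ti* from 0.0543 to 0.26 and *mt-Ts1* from -0.84 to -0.19, and none of these was called. The adjusted p of *mt-Atp8* was between 0.00372 and 0.474 over the other settings. The cause of these shifts was not tested. The labels state no link between same-numbered samples. The correlation of their deviations was between -0.0267 and -0.00163, within the range of the other pairs (-0.031 to 0.0336). It rests on few samples, so it cannot show whether same-numbered samples share more than a number. The replicate block also leaves female replicate 1 without a male. Counts limit the tRNA rows not tested, at 21 or fewer in a sample.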
